A study of Mus musculus with 32 samples.

Results

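The genes described here are interferon-stimulated genes, a group of 10 named members (Ifit1, Ifit2, Ifit3, Isg15, Irf7, Oasl1, Oasl2, Rsad2, Usp18 and Rtp4) whose transcription rises when cells sense interferon. Each gene was read from the probe set that names it alone in the platform annotation, and where several did so the brightest over all 32 arrays would have been taken. This gave 9 probe sets for 9 of the 10 genes, out of 35556 probe sets in all. The only probe set of Isg15, which encodes a ubiquitin-like protein, also names the gene model Gm9706 and was not used.

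Type I interferons signal through the receptor pair Ifnar1 and Ifnar2 and the kinases Jak1 and Tyk2, which activate a transcription factor complex that holds Stat2 and Irf9. That complex binds the interferon-stimulated response element (ISRE), a pair of GAAA sites, in the promoters of its targets. The targets include antiviral effectors, the transcription factor Irf7 that amplifies interferon production, and the brake Usp18. These transcripts are known in blood leukocytes without infection, while the resting brain keeps them low.

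RNA was taken from whole blood and from cerebellum of the same mice, killed at 8 to 10 weeks of age, and each mouse gave 1 array per tissue. In the Fmr1 experiment, 5 Fmr1-KO mice, a constitutive knockout on a C57BL/6 congenic background that models fragile X syndrome, were set against 5 WT mice. In the Tsc2 experiment, 3 Tsc2+/- mice with 1 disrupted copy of Tsc2 in every cell, a model of tuberous sclerosis on a mixed 129/SvJae-C57BL/6J background, were set against 3 WT mice. No mouse was infected or treated, the labels give female where the study's methods give male, and WT of each experiment is named here by that experiment.

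Fmr1 itself measured 168.6 to 262.6 in Fmr1-KO blood against 335.4 to 659.8 in its WT, and 141.9 to 306.4 against 831.9 to 917.0 in cerebellum, while Tsc2 in Tsc2+/- cerebellum lay between 713.0 and 999.5 against 1109.6 to 1176.1 and overlapped with WT in blood. Marker genes of erythroid cells, platelets and T cells were bright in blood, and those of granule cells and Purkinje cells in cerebellum, in keeping with the tissue labels. The blood libraries of Tsc2+/- mouse 2 and of WT mouse 3 of the Tsc2 experiment stood apart. Their summed intensity of 4 platelet markers (Pf4, Ppbp, Itga2b and Gp9) was 2306 and 1633, where the other 14 blood arrays lay between 21111 and 39406. Some of the results that rest on these mice are given with and without them, and the others include them. In cerebellum, the array of Fmr1-KO mouse 1 had the lowest mean correlation with its group (0.86, the next being 0.909).

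The promoters carry a first view of what the genes share beyond their name. In the RefSeq promoter table of GRCm38.p6, which covers 250 bases before to 50 bases after each gene start, 8 of the 10 genes had an entry (Usp18 and Rtp4 had none). The ISRE-type pair GAAANNGAAA, searched on both strands (TTTCNNTTTC on the other), lay in 4 of these 8 genes, Ifit1, Ifit3, Isg15 and Rsad2, and in 3.99% of the 27025 genes in the table. The GAS-type palindrome TTCNNNGAA, known from promoters of genes that answer interferon gamma, lay in 1 of the 8, Ifit2, against 9.55% of all genes. Ifit2 held no ISRE-type match. The 250 bases before the start are shown for the 3 measured genes with an ISRE-type match, 5′ to 3′ on the gene's own strand, with the matches in capitals. They lie at chr19:34640639-34640888 on the plus strand for Ifit1, chr19:34583279-34583528 on the plus strand for Ifit3, and chr12:26456453-26456702 on the minus strand for Rsad2.
Ifit1: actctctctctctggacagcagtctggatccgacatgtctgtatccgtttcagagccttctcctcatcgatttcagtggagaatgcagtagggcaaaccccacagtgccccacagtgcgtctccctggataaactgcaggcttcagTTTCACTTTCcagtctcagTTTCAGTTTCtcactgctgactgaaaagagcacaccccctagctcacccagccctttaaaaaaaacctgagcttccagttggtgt
Ifit3: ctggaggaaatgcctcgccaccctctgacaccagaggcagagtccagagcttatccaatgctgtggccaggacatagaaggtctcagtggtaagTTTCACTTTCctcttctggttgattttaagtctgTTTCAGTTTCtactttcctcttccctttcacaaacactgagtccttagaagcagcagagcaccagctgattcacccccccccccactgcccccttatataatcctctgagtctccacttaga
Rsad2: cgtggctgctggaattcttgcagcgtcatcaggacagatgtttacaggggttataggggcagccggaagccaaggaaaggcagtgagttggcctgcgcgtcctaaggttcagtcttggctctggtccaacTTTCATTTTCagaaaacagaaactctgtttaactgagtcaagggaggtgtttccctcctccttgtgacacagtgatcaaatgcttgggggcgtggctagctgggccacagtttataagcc
Ifit1 and Ifit3, which lie near each other on chromosome 19, hold the same pair of letters, TTTCACTTTC and TTTCAGTTTC. The first base of these matches lies 104 and 85 bases before the start in Ifit1, and 156 and 122 bases before it in Ifit3. Rsad2 holds 1 match, TTTCATTTTC, 120 bases before the start. A match describes the letters and was not read as a bound site.

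The first comparison asked how the genes differ between tissues in mice without a mutation. In the 16 arrays of WT mice, 8 of the 9 measured genes were lower in cerebellum than in blood at an adjusted p under 0.05 (limma, adjusted over all probe sets), where 22.2% of all probe sets were lower by that rule. The median log2 difference, cerebellum minus blood, was -2.94 over the 9 genes and 0.29 over all probe sets, and centring each array on its own median moved these to -3.33 and -0.11. Over all 32 arrays, the blood and cerebellum values of 7 genes did not overlap, and among WT arrays 8 did not overlap, as was so for 11.5% of all probe sets that were lower in cerebellum. In such tissue RNA, fewer cells of a type and less RNA per cell cannot be told apart.

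Rsad2, which encodes viperin, an enzyme that makes a chain-terminating nucleotide against viral polymerases, showed the largest difference of the 9. Its blood intensity was 13434, 13305, 12869, 13993 and 14956 in the Fmr1-KO mice and 12040, 13397, 13550, 13505 and 11454 in their WT. In the Tsc2 experiment it was 8526, 10842 and 11606 in Tsc2+/- mice and 12921, 11667 and 9135 in WT mice. Blood and cerebellum were far apart on every array, since the 16 cerebellum arrays lay between 27.5 and 68.2. The log2 difference in WT mice was -8.13 with a standard error of 0.18, which is 281-fold (limma, adjusted p = 1.5e-14).

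How low the dim genes truly were in cerebellum cannot be read from these intensities. The median over 1023 probe sets of olfactory receptor genes, which neither tissue is known to use, served as a guide to the dim end of an array and lay between 46.0 and 178 in cerebellum. Below it lay Rsad2 and Irf7 on 13 of the 16 cerebellum arrays each, Ifit1 on 10, Ifit2 on 9, Rtp4 on 5 and Usp18 on 1, whereas Ifit3, Oasl1 and Oasl2 were above it on all 16. In blood no measured gene fell below it on any array. With each WT cerebellum value raised to that median where it was lower, the difference became 198.2-fold for Rsad2, 62.1-fold for Irf7, 17.4-fold for Ifit1 and 5.9-fold for Ifit2.

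Irf7, the transcription factor that drives interferon-alpha genes, measured 5220, 4105, 4158, 4899 and 5940 in Fmr1-KO blood and 3722, 4886, 4427, 4760 and 4309 in WT blood of that experiment. It measured 2134, 1667 and 3076 in Tsc2+/- blood and 4048, 4135 and 1834 in the blood of their WT mice, so that mouse 3 was the lowest of its group by a wide margin. All 16 cerebellum arrays lay between 28.1 and 68.0, and the log2 difference in WT mice was -6.38 ± 0.20 (standard error, limma adjusted p = 5.1e-13). Oasl2 and Oasl1, oligoadenylate synthetase-like proteins, fell by 4.10 and 1.77 on the log2 scale (standard errors 0.24 and 0.12). The Oasl1 values of the tissues touched at 1 point, with 286.2 in the cerebellum of Fmr1-KO mouse 1 against 277.5 in the lowest blood array, WT mouse 3 of the Tsc2 experiment.

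The 3 Ifit genes, whose proteins form complexes that recognise foreign RNA, did not show the same tissue difference. Ifit1 fell by 4.39 in cerebellum (log2, standard error 0.25), with blood arrays from 494.8 to 2182 and cerebellum arrays from 32.7 to 113.4. Ifit2 fell by 2.77 (standard error 0.22), with 127.4 to 612 in blood and 37.4 to 100.6 in cerebellum. Ifit3 was the exception: its blood arrays ranged from 300.2 to 671 and its cerebellum arrays from 284.1 to 650. The log2 difference was -0.12 with a 95% interval from -0.49 to 0.24 (limma, adjusted p = 0.54). The probe set may share sequence with the close copy Ifit3b, whose own probe set, looked up after the values were seen, measured 34.1 to 166.1 in blood and 59.4 to 224.2 in cerebellum. Its part in the Ifit3 level was not tested.

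Usp18, the protease that removes Isg15 and blocks the type I receptor, fell by 2.49 (log2, standard error 0.14), with 277.2 to 991.6 in blood and 79.8 to 149.2 in cerebellum. Rtp4, a chaperone for receptor transport, fell by 2.94 (standard error 0.18), with 284.3 to 1007 in blood and 33.5 to 119.2 in cerebellum. Both genes were apart in the tissues on all arrays. The tissue difference thus passed the test for every measured gene but Ifit3, and with each array centred on its own median it passed for Ifit3 too (log2 difference -0.52, limma unadjusted p = 0.016).

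**Figure D1:**
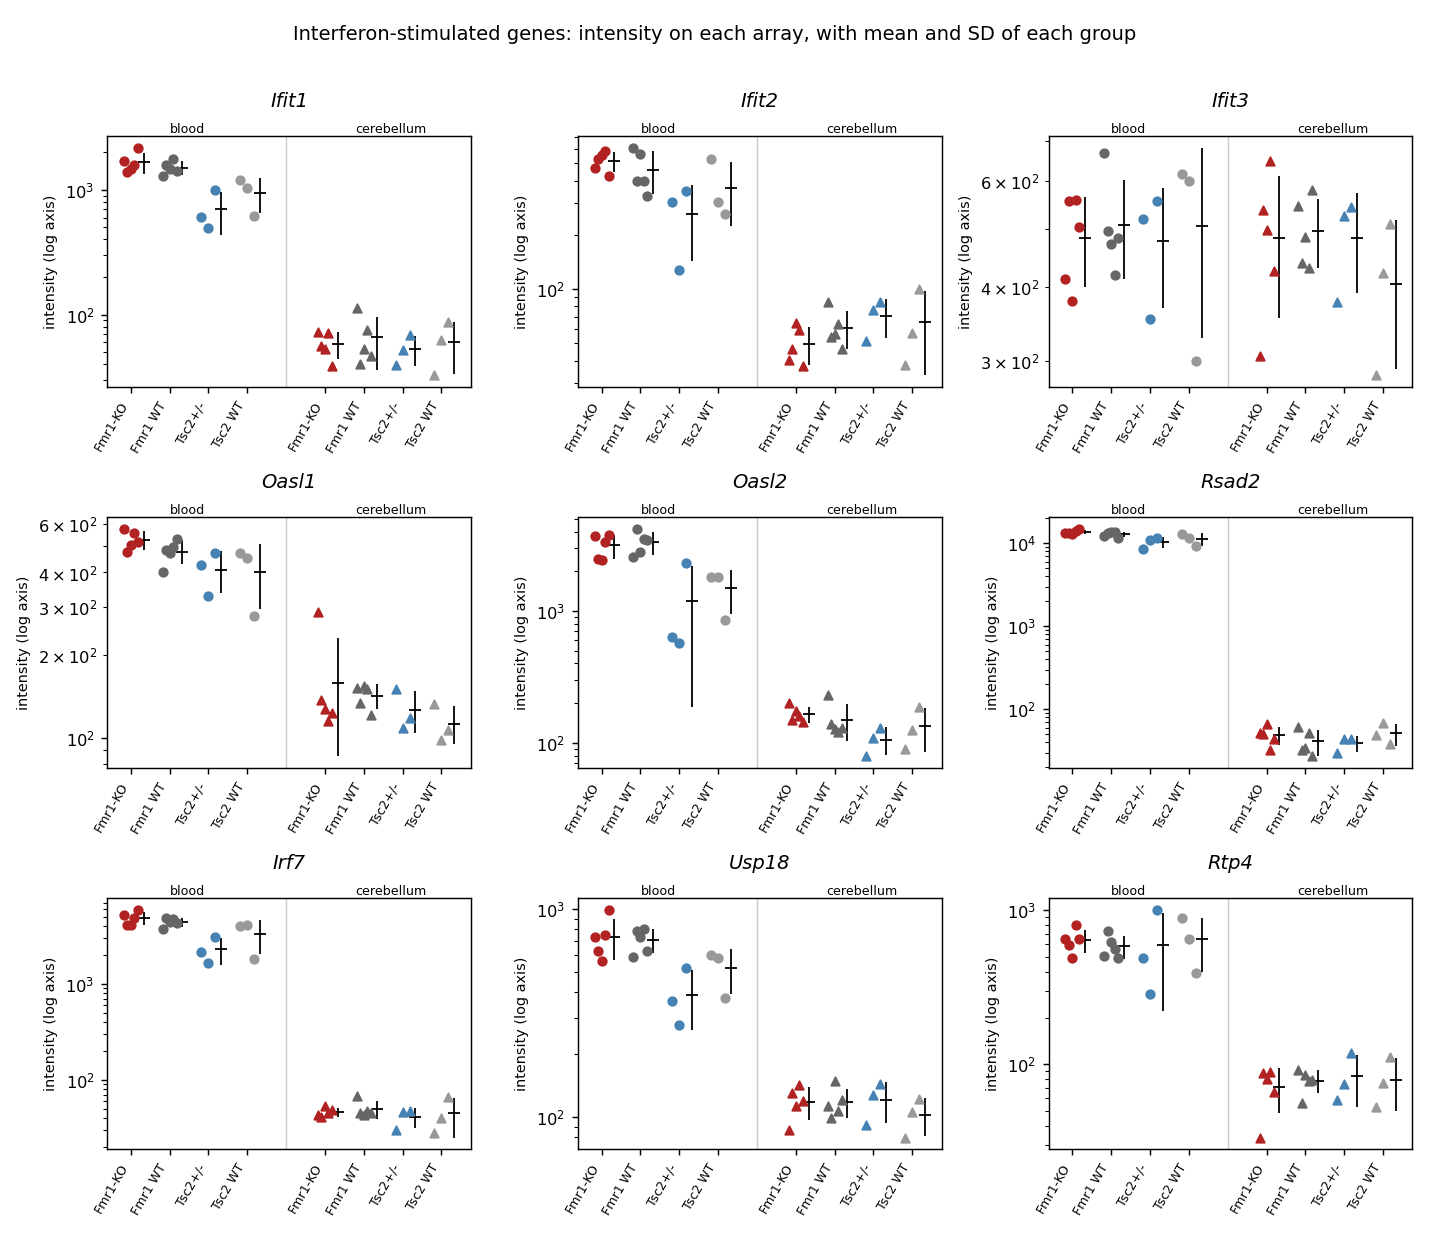
Intensity (log axis) of the 9 measured genes on each array, by group, with blood as circles and cerebellum as triangles. Points are mice and the dash with its bar is the mean and SD of the group. The tissues are apart for Rsad2, with 8526 to 14956 in blood and 27.5 to 68.2 in cerebellum, and overlap for Ifit3.

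Other genes of the pathway gave the same tissue comparison a frame. Of 41 further interferon-stimulated genes, 37 had a probe set of their own, and 33 of them were lower and 2 higher in WT cerebellum at an adjusted p under 0.05 (limma). The lowest p values belonged to Ube2l6 (log2 difference -7.75), the enzyme that conjugates Isg15, and Isg20 (-8.08), an exonuclease. The 2 that were higher were Stat2 (0.48), a subunit of the activating complex, and Adar (0.46), which edits double-stranded RNA. All 9 receptors and kinases were lower, and 10 of 13 sensors and inducers were lower while Tlr3 (2.26), the endosomal receptor for double-stranded RNA, and Tbk1 (0.60) were higher. Of 9 interferon genes measured, Ifna4 was lower (-0.33) and Ifna2 higher (1.73), and Ifnb1, with 10.5 to 114.3 in blood and 54.2 to 118.5 in cerebellum, did not pass the test. Stat2, Adar, Tlr3, Tbk1, Ifna4 and Ifnb1 were picked after their values were seen. Over all probe sets, 22.2% were lower in cerebellum at that adjusted p. The median difference was 0.29 and became -0.11 with each array centred on its median. The share of all probe sets that were higher is not given here.

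The second comparison asked whether loss of Fmr1 changed the genes. No measured gene differed between Fmr1-KO and WT at an unadjusted p under 0.01, the threshold of the study's methods, in blood, in cerebellum or over both tissues (limma), and none did at an unadjusted p under 0.05 or an adjusted p under 0.05. At p under 0.01, 0.582% of all probe sets passed in blood, 0.197% in cerebellum and 0.304% over both tissues. At p under 0.05 these shares were 3.50%, 1.66% and 2.73%, and at adjusted p under 0.05 they were 0.00844% in blood and 0.00281% over both tissues. In blood the median log2 difference of the 9 genes was 0.13, with 7 above 0, against -0.07 over all probe sets, of which 37.2% were above 0. In cerebellum it was -0.07, with 4 above 0 against 53.8% of all probe sets. The blood median ran from 0.05, without Fmr1-KO mouse 5, to 0.15 when 1 mouse was left out, and the cerebellum median changed sign without Fmr1-KO mouse 1 (0.06) or WT mouse 1 (0.03). The blood values of Rsad2 and Irf7 given above overlapped between the genotypes, and so did those of the other 7 genes. The largest blood difference, that of Ifit2, was 0.18 with a 95% interval from -0.24 to 0.61, and the narrowest interval, that of Rsad2, ran from -0.10 to 0.30. No exact permutation test of a single gene in blood or cerebellum came below p = 0.127, where 5 against 5 mice allow a p of 0.0079.

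Few of the other pathway genes passed in this model. Ifi27l2a, a small mitochondrial interferon-induced protein, was higher in Fmr1-KO cerebellum, with 64.4 to 92.5 against 44.5 to 63.2 in WT (log2 difference 0.54, limma unadjusted p = 0.0023, adjusted p = 0.999). It was the only 1 of the 37 further interferon-stimulated genes to pass in that tissue, and none passed in blood. Gbp5, a guanylate-binding protein that responds mainly to interferon gamma, was lower in Fmr1-KO blood, with 158.1 to 221.5 against 210.6 to 439.5 (log2 difference -0.67, limma unadjusted p = 0.0090, adjusted p = 0.96).

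The third comparison asked the same of the loss of 1 Tsc2 copy. No measured gene differed between Tsc2+/- and WT mice at an unadjusted p under 0.01 or under 0.05, or at an adjusted p under 0.05, in either tissue or over both (limma). The share of all probe sets at p under 0.01 was 0.298% in blood, 1.12% in cerebellum and 0.436% over both. At p under 0.05 it was 2.14%, 4.94% and 2.86%, and at adjusted p under 0.05 it was 0.0253% in cerebellum. In blood 8 of the 9 genes lay below 0, with a median log2 difference of -0.44 against 0.04 over all probe sets, of which 57.1% lay above 0. In cerebellum the median was 0.08, with 5 above 0 against 45.7% of all probe sets. It changed sign without Tsc2+/- mouse 3 (-0.19) or WT mouse 1 (-0.18) and rose to 0.26 without WT mouse 3. The spread between mice was wide: Oasl2 measured 638.9, 576.8 and 2332 in Tsc2+/- blood and 1817, 1811 and 859.9 in WT blood. Tsc2+/- mouse 3 thus lay above all 3 WT mice and the other two below them. Its log2 difference of -0.57 had a 95% interval from -2.13 to 0.99, and an exact permutation test of 3 against 3 mice cannot go below p = 0.1.

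Without the 2 mice with few platelet transcripts, the median blood difference was -0.30 and none of the 9 genes passed at p under 0.01 (limma). That fit held 4 blood arrays, and no share of all probe sets is given for it. Leaving out single mice moved the median of the 9 genes between -0.71, without Tsc2+/- mouse 3, and -0.16, without Tsc2+/- mouse 2. None of the 37 further interferon-stimulated genes passed in Tsc2+/- blood, and their median was 0.07 with 23 above 0. The 9 genes thus lay mostly below 0 and the longer list did not, and the difference between the lists was not tested.

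**Figure D2:**
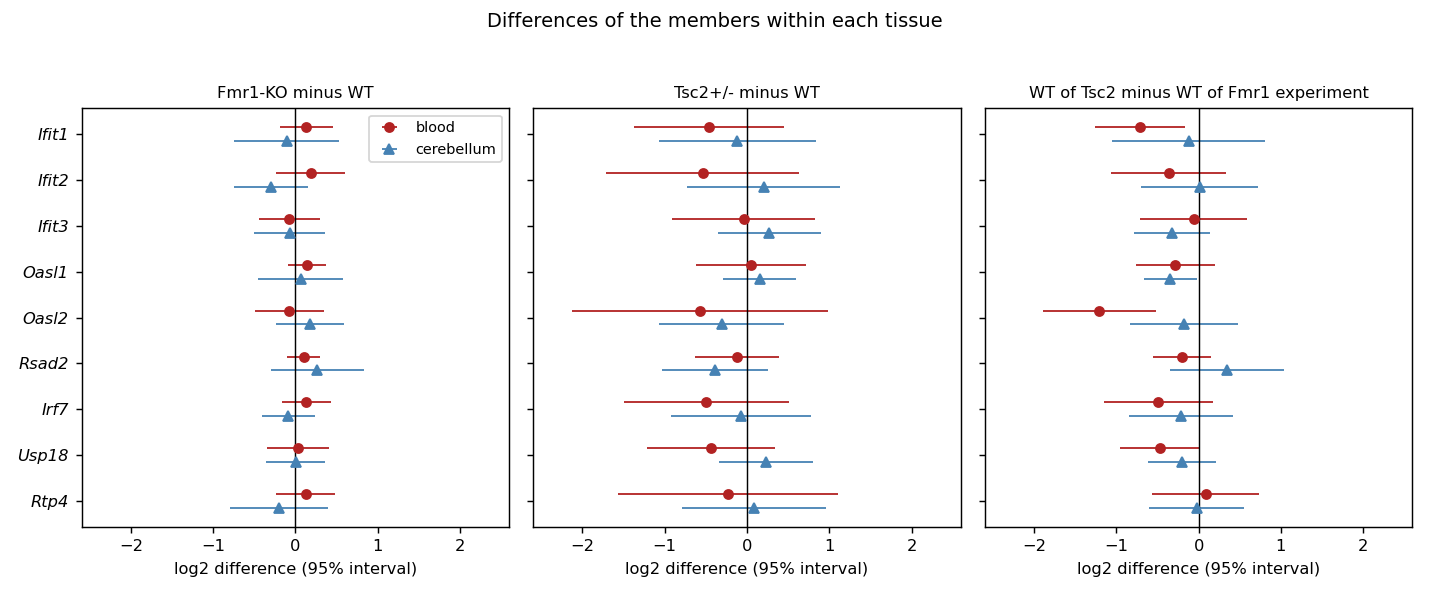
Log2 difference of each gene (x axis) in blood (circles) and cerebellum (triangles) for Fmr1-KO minus WT, Tsc2+/- minus WT, and WT of the Tsc2 experiment minus WT of the Fmr1 experiment. Bars are 95% intervals from limma, and only Oasl2 (-1.21) and Ifit1 (-0.71) in blood and Oasl1 (-0.34) in cerebellum, all in the third panel, have intervals that leave out 0.

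Whether a genotype effect differed between tissues or between models was tested for each gene, 36 tests in all, and none reached an unadjusted p under 0.01 or under 0.05 (limma interaction terms). The background at that p was 0.537% of probe sets for the Fmr1 tissue term, 0.596% for the Tsc2 tissue term, and 0.509% and 0.487% for the terms between models in blood and cerebellum. At p under 0.05 it was 3.28%, 3.49%, 3.63% and 2.23%. In blood the effect of Fmr1 loss minus that of Tsc2 loss had a median of 0.47 over the 9 genes, with 8 above 0, against -0.11 over all probe sets, of which 37.7% were above 0. That median ran from 0.25, without Tsc2+/- mouse 2, to 0.84, without Tsc2+/- mouse 3, when 1 mouse was left out. Without WT mouse 3 of the Tsc2 experiment, or without both platelet-low mice, 1 gene passed in this contrast, where 359 and 239 of all probe sets passed. In the latter setting, which was added after the data were seen, the gene was Irf7 (0.81, limma unadjusted p = 0.0098).

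The fourth comparison set the WT mice of the experiments against each other, C57BL/6 congenic controls against controls of the mixed 129/SvJae-C57BL/6J background. Strain and experiment cannot be told apart here, because each strain lies in 1 experiment. In blood, Oasl2 was lower in WT of the Tsc2 experiment, with 1817, 1811 and 859.9 against 2576, 4216, 2818, 3516 and 3443. The highest mouse of the one group thus lay below the lowest of the other. The log2 difference was -1.21 with a standard error of 0.30, which is 2.31-fold (limma, unadjusted p = 0.0041, adjusted p = 0.070). Ifit1 was lower as well, with 1205, 1030 and 618 against 1290, 1595, 1474, 1764 and 1405, without overlap (log2 difference -0.71, standard error 0.23, limma unadjusted p = 0.017, adjusted p = 0.10).

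Of the 9 genes, 1 (Oasl2) passed at an unadjusted p under 0.01 in this blood comparison, where 2.55% of all probe sets passed with a lower and 9.43% with a higher value. At p under 0.05 Ifit1 passed too, against 29.0% of probe sets, and at an adjusted p under 0.05 none did, against 0.132%. Values did not overlap between the groups for 2 genes, against 5.77% of all probe sets that were lower without overlap. Exact permutation tests gave p = 0.0179 for both Oasl2 and Ifit1, the smallest that 3 against 5 mice allow, and these were the only 2 of 54 such tests to fall below 0.05. The 9 tests of Tsc2+/- against WT in each tissue, counted in the 54, could not go below 0.1. The median difference over the 9 genes was -0.37, with 8 below 0, while 64.3% of all probe sets lay above 0 with a median of 0.22. Set against an all-gene median moved to -0.03 by a second quantile normalization within blood, the median of the genes was -0.60 and all 9 were below 0. When 1 mouse was left out the median ran from -0.59 to -0.11, the latter without mouse 3 of the Tsc2-WT group.

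The order of the blood groups by mean Oasl2 intensity was WT of the Fmr1 experiment (3314 ± 645, SD, n = 5), Fmr1-KO (3151 ± 650, n = 5), WT of the Tsc2 experiment (1496 ± 551, n = 3) and Tsc2+/- (1182 ± 996, n = 3). Neighbours within an experiment did not differ beyond their spread, and Fmr1-KO against WT of the Tsc2 experiment was not tested. Without WT mouse 3 of the Tsc2 experiment, 1 of the platelet-low mice, the strain difference of Oasl2 was -0.85 (limma, unadjusted p = 0.0067) and that of Ifit1 was -0.43 (unadjusted p = 0.039). The call on Oasl2 at p under 0.01 was lost without WT mouse 4 or WT mouse 5 of the Fmr1 experiment (limma, unadjusted p = 0.0105 and 0.0101). It was also lost with the replicate number as a block (-1.14, limma unadjusted p = 0.027) and with the methods' t-test, and under both of these Ifit1 no longer passed at p under 0.05. In cerebellum no gene passed at p under 0.01, as 1.29% of probe sets did, and at p under 0.05 Oasl1 did (-0.34), against 8.19%. Over both tissues none passed at p under 0.01, against 7.89%. At p under 0.05 Oasl2 (-0.69), Usp18 (-0.34) and Oasl1 (-0.31) were lower there, where 23.5% of all probe sets passed (limma).

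The blood of the strains also differed in markers of cell types. All 6 T cell markers were higher in WT of the Tsc2 experiment at an unadjusted p under 0.01 (limma, median log2 difference 1.29), and their summed intensity was 15892, 19267 and 35004 against 8268 to 9559. All 3 erythroid markers with a probe set of their own (Alas2, Slc4a1 and Epb42) lay below 0 with a median of -0.81, and 2 passed. Their summed intensity was 31135, 28650 and 23652 against 35265 to 44909, so that neither list overlapped between the groups. All 4 platelet markers lay below 0 (median -1.96, none passing) and 7 of 8 neutrophil markers did (median -0.70, none passing). Summed platelet intensity was 32840, 21815 and 1633 against 36214 to 39406, the value of 1633 being that of platelet-low WT mouse 3. All 4 B cell markers lay above 0 (0.39 to 0.47, none passing). Of 4 plasmacytoid dendritic cell markers, Siglech (1.85) and Ccr9 (3.00) were higher and passed, while Pacsin1 (0.74) and Cox6a2 (-0.10) did not pass. The part of these shifts in the lower Oasl2 and Ifit1 values was not tested.

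Other genes of the pathway moved in both directions between the strains in blood. Of the 37 further interferon-stimulated genes, 2 were lower and 2 higher at p under 0.01 (limma), and no adjusted p was under 0.05. Of all probe sets, 2.55% were lower and 9.43% higher at p under 0.01. In all, 64.3% lay above 0, with a median of 0.22 that a second quantile normalization within blood moved to -0.03. The higher values below are from the main fit and carry that shift. Cmpk2, the mitochondrial nucleotide kinase gene that neighbours Rsad2, measured 325.7 to 759.5 against 961.6 to 1380 (log2 difference -1.17), and Oas3, an oligoadenylate synthetase, 1284 to 2405 against 2845 to 4520 (-0.99). Mx1, a dynamin-like antiviral GTPase, was higher (0.54), as was Rigi, a cytosolic RNA sensor named Ddx58 in the files (0.48). The receptor subunit genes Ifnar1 (0.65) and Ifngr1 (1.00) and the kinase gene Tyk2 (0.63) were higher while Ifnar2 (-0.48) was lower. The negative regulators Cish (1.17), Socs1 (1.14), Ptpn2 (1.02) and Pias1 (0.70) were higher, 4 of 8, and none of that list was lower. Gbp3 (0.97), Gbp4 (1.28) and Ifng (0.80), of the interferon gamma branch, were higher too.

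Among mice of the same group, the measured genes rose and fell together in blood. After subtracting group means, the median Pearson r over the 36 pairs of genes and 16 blood arrays was 0.69 (0.18 to 0.95), with all 36 pairs above 0. Over all pairs of named genes the median was 0.06 and the 90th percentile 0.58. All arrays were normalised together, so the points share that scaling as well as their group means. The relation differed between experiments: the median r was 0.86 over the 6 arrays of the Tsc2 experiment and 0.40 over the 10 of the Fmr1 experiment, where 24 pairs were above 0. The 90th percentile over all pairs of named genes was 0.81 in the Tsc2 and 0.67 in the Fmr1 experiment, so the Fmr1 median lay below it. Without the 2 platelet-low libraries the median r of the measured genes was 0.45 over 14 arrays, with 26 pairs above 0. In blood Irf7 (median r 0.85 with the other 8) and Ifit1 (0.82) followed the group most closely and Ifit2 (0.42) least.

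The mice that carried this were those of the Tsc2 experiment. In blood, all 9 genes of Tsc2+/- mouse 3 and of WT mouse 1 lay above their group means (mean deviations 0.55 and 0.37 on the log2 scale), and all 9 of WT mouse 3 lay below (-0.56). Tsc2+/- mouse 2, the other platelet-low mouse, had 1 of 9 above its group mean (-0.49). The median SD of the 9 genes was 0.46 in Tsc2+/- blood and 0.53 in the blood of their WT mice, against 0.19 and 0.25 for all named genes of at least moderate brightness. In Fmr1-KO blood it was 0.26 and in WT blood 0.20, close to the 0.25 and 0.26 of all named genes. The single widest was Oasl2 in Tsc2+/- blood, with an SD of 1.12.

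**Figure D3:**
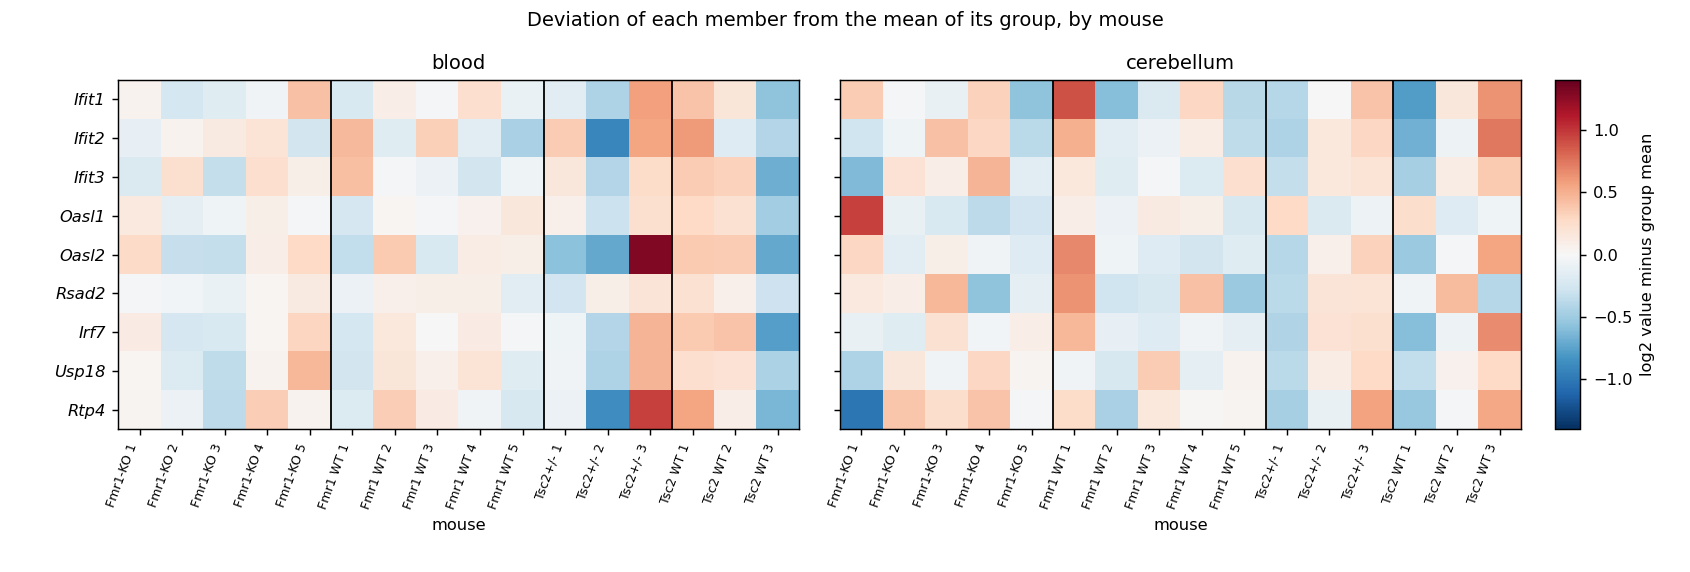
Deviation of each gene from the mean of its group on the log2 scale (colour, red above and blue below), for every mouse (x axis) in blood and cerebellum. Black lines part the groups, and in blood the columns of Tsc2+/- mouse 3 (mean 0.55) and WT mouse 3 of the Tsc2 experiment (-0.56) are of 1 colour from top to bottom.

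Blood and cerebellum of the same mouse went the same way in some mice and opposite ways in others. The mean deviation of the 9 genes in blood and that in cerebellum had an r of -0.32 over 16 mice (-0.47 over the 10 mice with Fmr1-KO or its WT, -0.30 over the other 6). WT mouse 3 of the Tsc2 experiment, lowest in blood (-0.56), had 7 of 9 genes above the group mean in cerebellum (0.37), and WT mouse 1 went the other way (0.37 in blood and -0.41 in cerebellum). Tsc2+/- mouse 2 was low in blood (-0.49) and near its group mean in cerebellum (0.06). Tsc2+/- mouse 3 lay above in both tissues (0.55 and 0.26), as did WT mouse 2 of that experiment (0.18 and 0.04). Tsc2+/- mouse 1 lay below in both (-0.065 and -0.326). In cerebellum itself the median r over pairs was 0.40 (-0.77 to 0.89), with 29 of 36 above 0. Over all pairs of named genes the median was -0.01 and the 90th percentile 0.71, above the median of the 9 genes. Oasl1 went against the others there (median r -0.31), and several genes were as dim as olfactory receptor probe sets on many of these arrays, as given above.

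Markers of blood cells moved with the genes. The mean of the erythroid markers had an r of 0.82 with the mean of the 9 genes over 16 blood arrays after subtracting group means (Spearman rho 0.84). It was 0.60 within the Fmr1 experiment, 0.89 within the Tsc2 experiment, 0.69 without the 2 arrays farthest from the median marker level, and 0.79 without the 2 platelet-low libraries and with group means taken again. For T cell markers r was -0.72 (rho -0.60), with -0.46 and -0.78 within the experiments, -0.49 without the 2 farthest arrays and -0.76 without the platelet-low libraries. For platelet markers r was 0.86 but rho was 0.43, and within the Fmr1 experiment r was -0.69, against 0.92 within the Tsc2 experiment. The arrays farthest from the median platelet level were the 2 platelet-low libraries, and without them r was 0.64 with the group means kept and 0.26 with the means taken again. The erythroid and T cell relations thus had the same sign in both experiments. Granule cell markers, whose summed intensity in blood was 124 to 517 against 24938 to 38449 in cerebellum, also had an r of -0.64 with the genes in blood (-0.78 and -0.84 within the experiments), so an r of this size was seen with genes that blood barely measured. The part of blood composition and of array signal in these relations was not tested.

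In cerebellum the genes moved with markers of oligodendrocytes, the myelin-forming cells, with an r of 0.82 (rho 0.75). It was 0.76 and 0.88 within the experiments and 0.67 without the 2 farthest arrays. Endothelial markers gave 0.71 (0.47 and 0.99 within the experiments), microglial markers 0.55 (-0.08 and 0.86) and erythroid markers -0.70. Of the erythroid markers, Epb42 (cerebellum group means 25.7 to 47.9) and Slc4a1 (57.6 to 83.1) were about as dim as olfactory receptor probe sets, and Alas2 (164.2 to 228.0) was brighter. The part of array signal in these relations was not tested. The microglial relation thus did not hold in the Fmr1 experiment. With 15 marker lists in each tissue, 30 relations were computed, the ones given were picked after their values were seen, and none was tested.

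**Figure D4:**
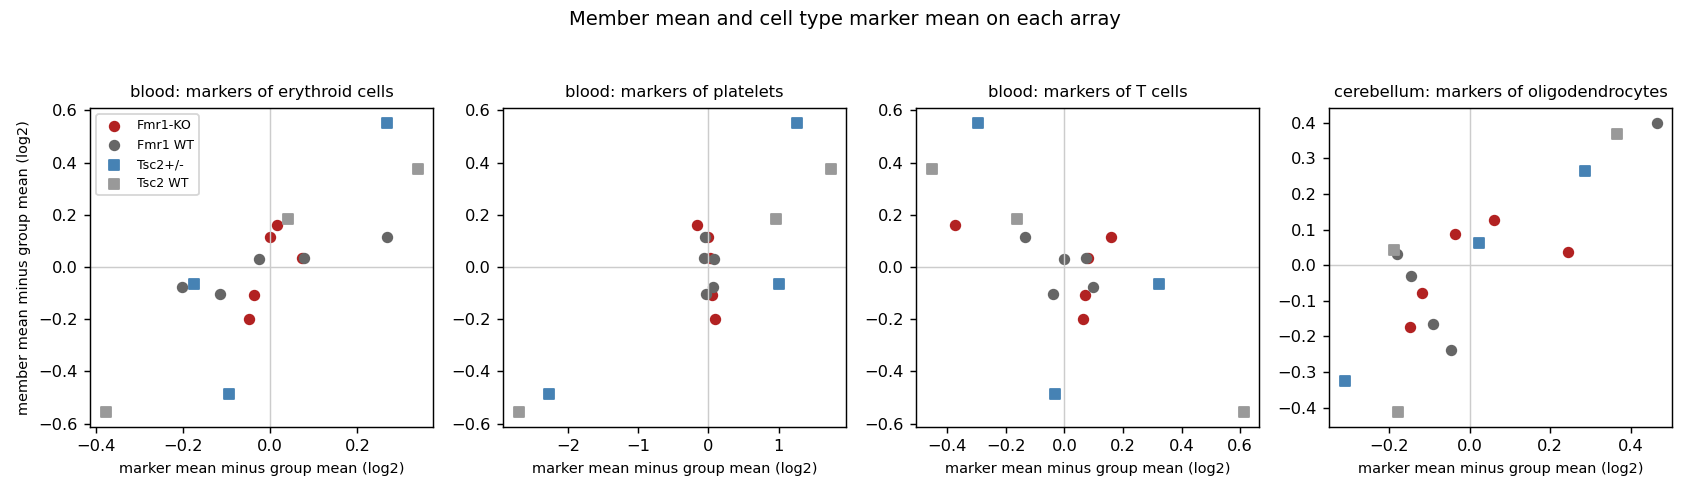
Mean deviation of the 9 genes (y axis, log2) against that of marker genes (x axis, log2) on each of 16 arrays, both after subtracting group means, with circles for the Fmr1 and squares for the Tsc2 experiment. The points rise for erythroid markers (r = 0.82), fall for T cell markers (-0.72) and rise for oligodendrocyte markers in cerebellum (0.82), while in the platelet panel the 2 platelet-low libraries are the squares at the far left.

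The genes outside the group that varied most like it in blood, by r with the mean of the 9 genes over 16 arrays after subtracting group means, were Glrx5 (0.952), Trafd1 (0.949), Iscu (0.941), Hscb (0.940), Vopp1 (0.939), Oas3 (0.937), Asb1 (0.934) and Smox (0.933), of 15820 genes. Within the Fmr1 experiment alone these r ran from 0.65 for Vopp1 to 0.88 for Oas3, and without the platelet-low libraries from 0.80 for Smox to 0.92 for Oas3. Glrx5, Iscu and Hscb encode parts of the mitochondrial iron-sulfur cluster machinery, while Oas3 is itself interferon-stimulated. In cerebellum they were Stard13 (0.910), Gtf3a (0.902), Rigi (Ddx58 in the files, 0.899), Ctsd (0.894), Plk4, Ndufa10, Litaf and Pde1a (0.880), of 17426 genes. Of the 8 genes of each tissue, 1 was in the list of further interferon-stimulated genes. The median r of that list was 0.53 in blood, over 37 genes, and 0.59 in cerebellum, over 28, against -0.19 and 0.10 over all genes compared.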

How the data were processed

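Total RNA, 250 ng per array, from blood and cerebellum of 16 mice was labelled and hybridised to 32 Affymetrix Mouse Gene ST arrays. Before deposit, the authors quantile-normalised probe signals across the arrays and summarised each probe set with PLIER, so that the deposited unit is an intensity on a linear scale. The number of arrays, 3 or 5 per group, limits the precision. Genes were named from the platform annotation, which gives 1 gene for 21789 probe sets, several for 1621 and none for 12146. The genes and gene lists were chosen with earlier results of these data known.

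The log2 of each intensity, without an offset, was fitted with limma 3.58.1 (lmFit and eBayes) in R 4.3.3, with tissue and genotype as terms over both tissues, genotype alone within a tissue, and interaction terms for differences between effects. Adjusted p-values are Benjamini-Hochberg over all 35556 probe sets, all tests are two-sided, and calls were made at an unadjusted p under 0.01 and an adjusted p under 0.05. Fits over both tissues count the 2 arrays of a mouse as independent. Single genes were compared by exact permutation of mice. The fits were tested on simulated data. Correlations used values less their group mean and are descriptions. Of other lists, genes at p under 0.01 are named, at most the 5 smallest p, with the 8 genes most like the members among those with a mean log2 intensity of at least 6. Replicate numbers come from the labels. Within a tissue p-values measure the spread between mice, and in fits with arrays of both tissues the spread between arrays. The alternatives were other scalings, an offset of 16, other variance models, filters on dim or unnamed probe sets, blocks for replicate number and mouse, the methods' t-test, leaving out each mouse, and, added after the data were seen, leaving out the 2 platelet-low mice.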

Additional observations from a re-analysis of the deposited data

Results flagged for a closer look

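Of 36 sets of 5 arrays over both tissues, 3 held 1 array far from the other 4, where chance gives about 1 in 20, and all 3 were among the 18 sets in cerebellum. Irf7 measured 68.0 in WT mouse 1 of the Fmr1 experiment, against 43.4 to 47.7 in the other 4. Oasl2 measured 231.1 in the same mouse, against 121.5 to 139.6. In that cerebellum array 8 of the 9 genes lay above their group mean, and its oligodendrocyte markers had the highest deviation of the 16 arrays. Oasl1 measured 286.2 in Fmr1-KO mouse 1, against 115.1 to 137.5 in the other 4. That array had a median intensity of 257.2 and an olfactory receptor median of 178.0, each the highest of the cerebellum arrays.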

How the results depend on the processing

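Of 543 recomputed counts and medians over the 9 genes, 526 stayed within 1.5 times of the count or moved by less than the spread between replicates. That spread was wide against the medians, and most of the counts were 0 in the main fit, so the number that stayed says little about stability. Of 254 recomputed medians, 13, all of a median of 0.32 or less in size, changed sign, 11 of them when 1 mouse was left out. These changes fell on 7 of the 14 medians. The Fmr1 median over both tissues, 0.02, was -0.03 with quantile normalization within tissues and -0.02 to 0.06 when 1 mouse was left out, and the strain median in cerebellum, -0.18, ran from -0.36 to 0.08, the last without Tsc2-WT mouse 1. The other 17 values concern the strain comparison and the terms with the Tsc2 experiment, and the cause was not tested. In blood the count of genes between strains at p under 0.01 was 1, and it was 0 with a replicate block or the methods' t-test and 0 to 2 when 1 mouse was left out (0 without Fmr1-WT mouse 4 or 5, 2 without Tsc2-WT mouse 1). Over all probe sets, 504 passed with the block and 2027 with the t-test. Without Fmr1-WT mouse 4, Fmr1-WT mouse 5 and Tsc2-WT mouse 1, 2346, 3026 and 5093 passed. At adjusted p under 0.05 the count of genes in blood was 0, but 1 with 16 added before log2, with all 32 arrays in 1 fit, with probe sets of mean intensity under 64 left out, and with probe sets of 1 gene name only. These settings called 2683, 8602, 4282 and 1534 probe sets, in that order, against 47 in the main fit. Over both tissues the count of genes was 0 at p under 0.01, but 1 with 16 added, with all 32 arrays in 1 fit and with the mouse as a random block, and 0 to 1 when 1 mouse was left out (1 without Tsc2-WT mouse 1 or 3). The first 3 of these settings called 3140, 4928 and 3612 probe sets, against 2806 in the main fit. Without Tsc2-WT mouse 1 and Tsc2-WT mouse 3, 3806 and 1095 were called. For the Fmr1 effect minus the Tsc2 effect in blood the count of genes at p under 0.01 was 0, but 1 without the 2 platelet-low mice, and 0 to 1 when 1 mouse was left out (1 without Tsc2-WT mouse 3). Over all probe sets 239 passed without the platelet-low mice and 359 without Tsc2-WT mouse 3, against 181 in the main fit. The median difference between tissues in the effect of Tsc2 loss, 0.32, ran from -0.10, without Tsc2-WT mouse 1, to 0.91, without Tsc2-WT mouse 3.

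Replicate numbers were not taken to pair the mice, since in no comparison did every same-numbered pair of deviations correlate above 0.1. In the Fmr1 experiment r lay between -0.028 and 0.045 for blood arrays and between -0.071 and 0.328 for cerebellum arrays, and for blood arrays of the Tsc2 experiment between -0.158 and 0.23. In Tsc2 cerebellum it was 0.418 and 0.362 for numbers 1 and 3, above any other pairing, but -0.114 for number 2, and over the 9 genes alone it was 0.457 to 0.798. Between strains it lay between -0.17 and 0.065 (blood) and between -0.258 and -0.079 (cerebellum). With the replicate block, the strain median in blood was -0.46 against -0.37, and Oasl2 was -1.14 (limma, unadjusted p = 0.027). That block changed no other count of the 9 genes, in Tsc2 cerebellum included. Averaging probe sets of a gene was not run, because each gene had 1 probe set of its own. Quantile normalization within tissues moved the median of the Fmr1 effect minus the Tsc2 effect in blood from -0.11 to 0.01 over all probe sets and to 0.54 over the genes. The small groups and the dim cerebellum signals limit what could be called.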
